A study of Mus musculus with 9 samples.

Results

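Transcripts of interferon-induced genes and of the factors that control them were followed in mouse cardiomyocytes through the first weeks after birth. The genes were taken from the 15824 genes of the deposited count table by a rule on their symbols alone. They were the interferon regulatory factors (Irf), Stat2, the Ifit, Ifitm, Ifi, Oas, Gbp, Irgm, Mx and Parp members, and single antiviral genes such as Rsad2 and Usp18. The rule was chosen with earlier results of these data known, so the shares below are not independent of these data. The rule gave 46 genes, and all 46 passed the filter on low counts, which removed only 7 genes and left 15817 in the test. Genes with few counts at P1, such as Ifit1 (6 counts in all) and Oas2 (15), passed it through the later ages. Other genes that the rule names, such as Isg15 and Igtp, were not analysed here.

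The libraries came from CD-1 (ICR) mice at postnatal day 1 (P1), day 14 (P14) and day 56 (P56), with 3 libraries of ribosomal-RNA-depleted RNA at each age and no genotype or treatment given in the sample labels. A P1 library pooled 12 hearts and a P14 or P56 library 6 to 7, so the tests measure the spread between pools. The protocols describe Percoll or perfusion isolation of whole myocytes, partly in animals that had undergone surgery, and also sorting of nuclei that carry Pcm1. The labels do not settle which of these applied to the libraries, and the material is named only as isolated cardiomyocytes.

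Interferons bind cell-surface receptors and, through JAK kinases, activate STAT proteins. With IRF9, STAT2 enters a complex that binds a DNA element called ISRE, whose core is the run GAAA, any 2 bases, and GAAA again, while the signal of interferon gamma acts through a palindrome called GAS (TTCNNNGAA). The induced genes encode sensors of viral RNA, enzymes that destroy it, GTPases that attack the membranes of intracellular microbes, and brakes on the pathway, and many of them keep a low level of transcription in the absence of infection.

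Library depth ran from 49190887 to 58538025 counts in the P1 group, from 36619799 to 38878181 in the P14 group and from 45866453 to 49535917 in the P56 group. Levels below are CPM, each count scaled to a common library size after TMM adjustment. Summed CPM of 12 cardiomyocyte markers ran from 52200 to 62200, from 60800 to 93400 and from 55800 to 79700 at the 3 ages in turn. The mean log2 CPM of 58 markers of other heart cells, called the marker score, ran from 1.17 to 1.68, from 2.28 to 3.53 and from 0.40 to 1.49. In bulk RNA, fewer cells of a type and less RNA per cell cannot be told apart. Replicate 1 of P56 had the highest marker score of its age (1.49, against 0.90 and 0.40). It also had the lowest sum of cardiomyocyte markers (55800 CPM, against 77300 and 79700). Replicate 1 of P14 held the same place within P14, with a score of 3.53 (against 3 and 2.28) and a sum of 60800 CPM (against 78600 and 93400). Calls that change when P56 replicate 1 is left out are given both ways.

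From P1 to P14 most of the 46 genes rose together. By edgeR's quasi-likelihood test, 36 rose and 1 fell at an adjusted p under 0.05, where 28.4% of all genes tested rose and 27.5% fell. The median log2 change of the 46 was 1.70, against 0.00 over all genes. From P14 to P56 only 4 were higher and 14 lower (27.5% and 28.5% of all genes), with 28 past neither side of the threshold and a median of −0.40 (all genes −0.02). The 14 are thus a share close to that of all genes, and the 4 a smaller one. At P56, 31 genes were still above P1 and 2 below it (30.9% and 31.7% of all genes), with a median of 1.23 against −0.03. Libraries did not overlap between P1 and P14 in 38 genes higher and 1 lower at P14 (31% and 32.9% of all genes). They did not overlap between P14 and P56 in 3 higher and 14 lower at P56 (30.2% and 29.3%), nor between P1 and P56 in 32 higher and 2 lower (35% and 37.1%). Across the 3 ages 40 of the 46 differed, a share near the background of 78% of all genes.

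**Figure D1:**
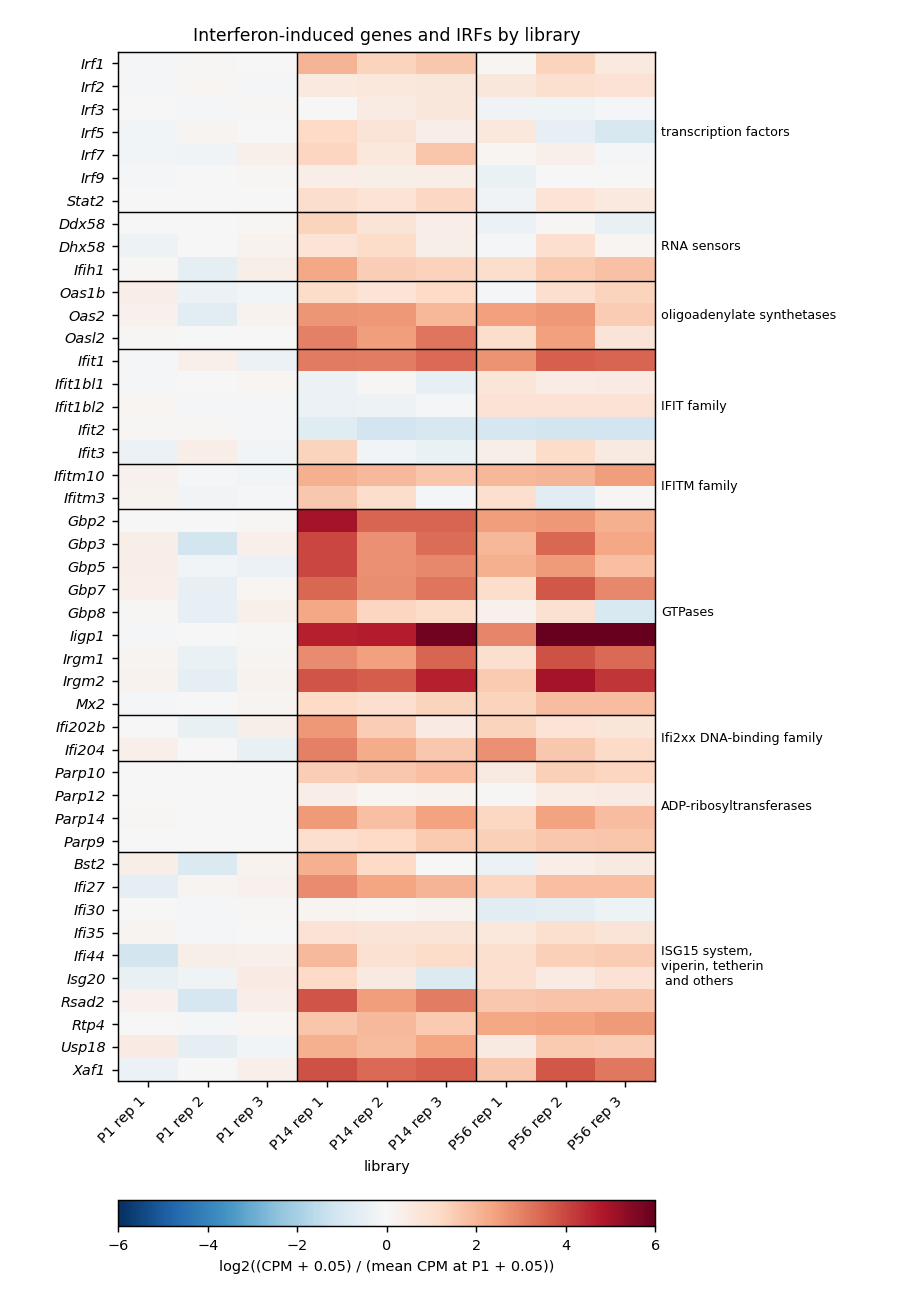
Level of the genes in each of the 9 libraries, as the log2 ratio of CPM + 0.05 to the gene's mean CPM at P1 + 0.05, with genes in rows by role and libraries in columns by age. Most rows are above the P1 mean (red) at P14 and P56, and several GTPase rows are lower in replicate 1 of P56 than in the other 2 libraries of that age.

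The 14 genes lower at P56 than at P14 were Ifi30 and 13 that had risen before. Of these falls, 7 (Ddx58, Gbp2, Ifi30, Irf3, Irf7, Irf9 and Rsad2) kept their call whichever library was left out. The other 7 (Gbp5, Gbp8, Ifi27, Irf1, Oasl2, Stat2 and Usp18) lost it without P56 replicate 3. Without P56 replicate 1, 9 genes were lower and 7 higher at P56 than at P14 (26.8% and 26.2% of all genes), and the median was −0.19. Irf2, Iigp1 and Parp9 gained a rise and Irf5 a fall in that interval, while Gbp5, Gbp8, Ifi27, Irf1, Oasl2 and Usp18 lost their falls (adjusted p from 0.0516 to 0.0972). That fit had 38 genes higher and 1 lower at P14 than at P1 (29.2% and 27.6%), and 31 higher and 1 lower at P56 than at P1 (29.8% and 30.4%). The additional rises to P14 were Irf5 and Parp12. Between P1 and P56 Stat2 gained a rise (0.70 ± 0.12, adjusted p = 0.00114, against 0.45 and 0.103 with all libraries), and Ifit1bl1 and Ifi30 lost their calls (adjusted p = 0.0708 and 0.0771). With all libraries, a further 21 genes rose by P14 and then passed neither threshold, Rtp4 and Mx2 rose in both intervals, and Ifit1bl1 and Ifit1bl2 rose only in the later one. Ifit2 fell in the earlier interval. Dhx58, Ifit3, Ifitm3, Irf5, Isg20 and Parp12 passed the threshold in neither interval.

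**Figure D2:**
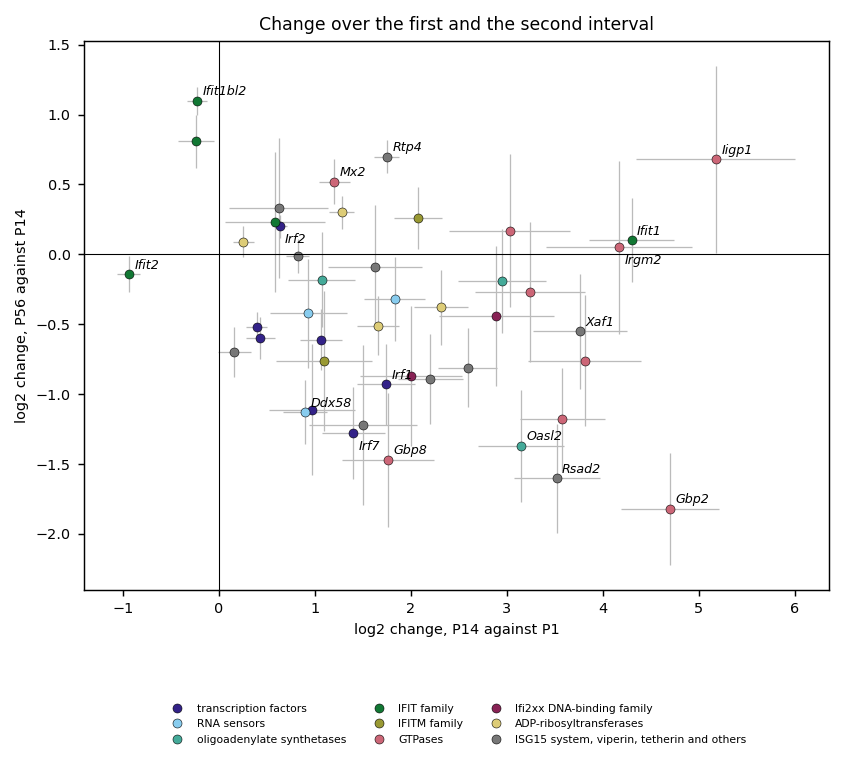
Fitted log2 change from P1 to P14 (horizontal axis) and from P14 to P56 (vertical axis) for the genes, coloured by role, with bars of ± 1 SE. Most points lie right of 0, and the points furthest right are Iigp1, Gbp2, Ifit1 and Irgm2. The 2 comparisons share the P14 libraries, so no relation is read from the plot.

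Markers of other cells also moved between these ages, and their values belong beside the counts. All 16 endothelial markers rose from P1 to P14 (summed level 84.3 to 119 CPM at P1 and 252 to 643 at P14) and fell to P56 (46.9 to 115 CPM). Of 12 leukocyte markers 11 rose (7.35 to 9.24 CPM at P1 and 16.7 to 45.6 at P14) and none fell to P56 (14.6 to 27.4 CPM), and none of the 12 was at 0 in every library of any age. The scores of P14 did not overlap those of P1 or P56. An adjustment for the score therefore rests on its spread within each age and cannot separate age from the score. It also moved the 12 cardiomyocyte markers: 8 were higher and none lower at P14 than at P1 (median 0.74). From P14 to P56, 1 of them was higher and 10 lower (median −1.02). After adjustment for the marker score, 30 of the 46 genes were higher at P14 than at P1 and 1 lower (24.2% and 24.5% of all genes), and the median log2 change was 1.60. After the same adjustment 5 genes were lower (Irf3, Irf9, Parp10, Stat2 and Usp18) and 4 higher (Ifi202b, Ifi204, Ifit1bl1 and Ifit1bl2) at P56 than at P14 (14.8% and 15.7% of all genes), and 33 were higher and 3 lower at P56 than at P1 (32.3% and 32.9%).

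Among the transcription factors, 7 of 8 rose by P14 (8 of 8 without P56 replicate 1), and 5 of the 8 fell from P14 to P56. Irf2, which competes with Irf1 at shared sites and mostly represses, had the highest level per transcript length of the 46 at P1 (17.1 ± 1.37 CPM per kb, SD of 3 libraries, with Parp12 next at 5.05 ± 0.0765). Its level was 121, 138 and 120 CPM in the 3 P1 libraries, 189, 194 and 202 at P14 and 200, 245 and 229 at P56. No P1 library reached the later ages, while P14 and P56 overlapped. The log2 change was 0.63 ± 0.08 (SE) from P1 to P14 (adjusted p = 0.00017) and 0.20 ± 0.08 from P14 to P56 (adjusted p = 0.0578), which passed without P56 replicate 1 (0.28 ± 0.07).

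Irf1, an activator that interferon gamma induces, was present at 1.34, 1.55 and 1.50 CPM at P1, 6.21, 3.81 and 4.64 at P14 and 1.61, 3.83 and 2.25 at P56. All P14 libraries exceeded all P1 libraries, and P56 lay between with 1 library as high as the lowest of P14. It rose by 1.74 ± 0.30 (adjusted p = 0.000866) and changed by −0.93 ± 0.29 afterwards (adjusted p = 0.0209), a fall that was not called without P14 replicate 1, P56 replicate 1 or P56 replicate 3 (adjusted p from 0.00246 to 0.311 over all alternatives). The 250 bases before the first of its 2 RefSeq starts (chr11:53769764-53770013, GRCm38.p6, plus strand, just before its first annotated exon) are shown for the single TTCNNNGAA match, in capitals, and the window at the other start holds no match to either element.
Irf1: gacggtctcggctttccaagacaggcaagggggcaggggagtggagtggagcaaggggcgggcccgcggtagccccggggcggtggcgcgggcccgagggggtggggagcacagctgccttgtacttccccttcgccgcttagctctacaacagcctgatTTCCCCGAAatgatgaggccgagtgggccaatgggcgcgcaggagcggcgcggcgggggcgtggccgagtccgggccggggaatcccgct

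Stat2, a signal carrier of the pathway, had 9.37, 9.15 and 8.83 CPM at P1, 18.9, 16.3 and 21.7 at P14 and 7.77, 15.9 and 13.6 at P56. It rose by 1.06 ± 0.22 (adjusted p = 0.00262), and its later change of −0.61 ± 0.22 (adjusted p = 0.0369) was not called without P14 replicate 1, P14 replicate 3, P56 replicate 3 or any 1 of the P1 libraries. Irf9, the DNA-binding partner of STAT2, had 6.47, 7.03 and 7.12 CPM at P1, 9.15, 8.71 and 9.08 at P14 and 5.28, 6.68 and 6.86 at P56. The P14 libraries lay above both other ages. Its rise was small, 0.39 ± 0.11 (adjusted p = 0.0159), and was lost without P1 replicate 1, while its fall of 0.52 ± 0.11 on the log2 scale (adjusted p = 0.00377) kept its call with each library left out.

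Irf7, the amplifier of the type I response, had 0.253, 0.246 and 0.378 CPM at P1, 0.792, 0.487 and 1.05 at P14 and 0.317, 0.367 and 0.267 at P56, with P14 above both other ages. It rose by 1.4 ± 0.33 (adjusted p = 0.00495) and fell by 1.28 ± 0.33 (adjusted p = 0.00873), a fall that was not called after adjustment for the marker score. Irf3, which is held ready in the cytoplasm and activated by phosphorylation, had 11.8, 10.6 and 12.1 CPM at P1, 11.7, 16.3 and 18.4 at P14 and 9.85, 9.74 and 10.8 at P56. Only P14 replicate 1 was at the P1 level. The rise of 0.43 ± 0.15 (adjusted p = 0.0343) was not called with any single P1 library left out, nor without P14 replicate 2 or 3, and its adjusted p ran from 0.000634 to 0.122 over the alternatives. The fall of 0.60 ± 0.15 to P56 (adjusted p = 0.007) was called in each of them. Irf5, an inflammatory factor of myeloid cells, had 0.190 to 0.246 CPM at P1 (37 counts in all) and passed no threshold with all libraries (0.97 ± 0.45, adjusted p = 0.0909, then −1.11 ± 0.47, adjusted p = 0.0694). Without P56 replicate 1 it passed in both intervals, at 0.97 ± 0.33 (adjusted p = 0.0305) and then −1.89 ± 0.43 (adjusted p = 0.00587). Its libraries were ordered as the marker score at both P14 and P56, as were those of 10.8% of all genes.

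**Figure D3:**
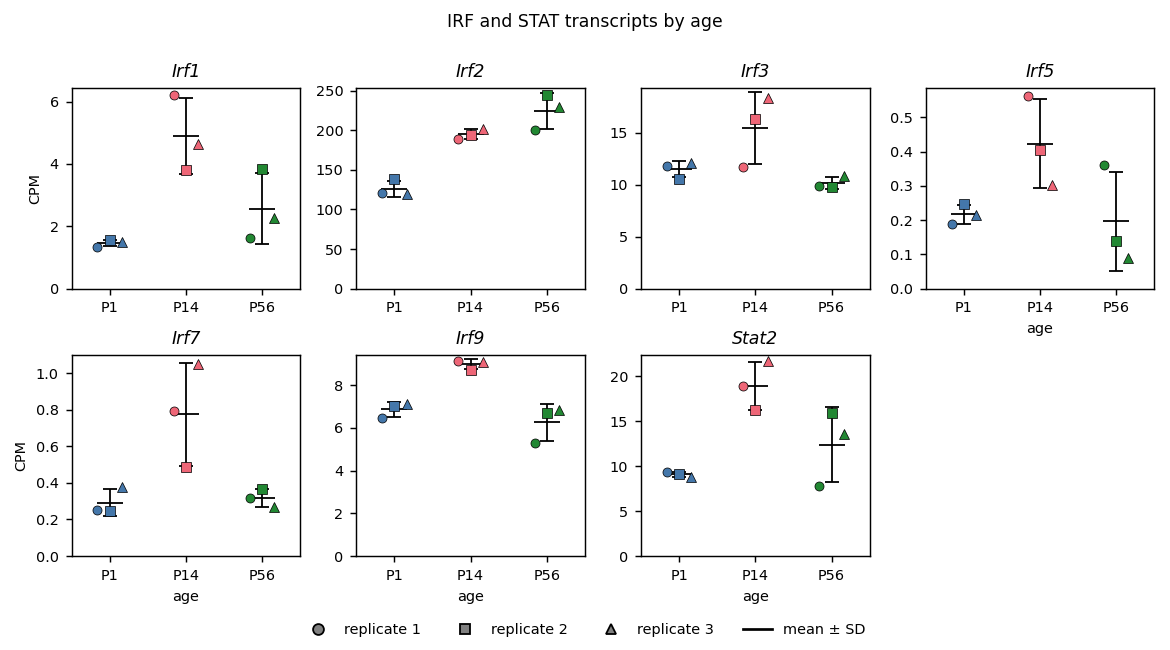
CPM of the 6 Irf genes and Stat2 in each library by age, with a point shape per replicate number and the mean ± SD of 3 libraries. Irf2 is the one panel whose libraries reach 245 CPM, Irf3 and Irf9 are below the P1 mean at P56 and Irf7 is near it, and P56 replicate 1 is the low point for Stat2.

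The interferon-inducible GTPases had the highest median change of the role groups. All 9 rose from P1 to P14, with a median log2 change of 3.58, and 8 of the 9 stayed above P1 at P56. Iigp1 encodes an immunity-related GTPase that loads onto the vacuoles of intracellular parasites. It had 3.40, 3.81 and 3.98 CPM at P1, 97.0, 99.9 and 210.0 at P14 and 28.4, 371.0 and 252.0 at P56 (chromosome 18, 60376027 to 60392634, plus strand). Every later library was above P1 by several-fold, and P56 held both the highest and the lowest of these. The rise to P14 was 5.18 ± 0.83 (adjusted p = 0.000551). The change from P14 to P56 was 0.68 ± 0.67 (adjusted p = 0.409), or 1.20 ± 0.31 without P56 replicate 1 (adjusted p = 0.0106, and from 0.0106 to 0.959 over the alternatives). Per transcript length Iigp1 and Irf2 were the 2 highest of the 46 at P56 (37.3 ± 29.9 and 30.4 ± 3.08 CPM per kb) and could not be ordered within their spread, whereas at P1 Iigp1 ranked 15 of the 46 (0.641 ± 0.0512).

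Irgm2 and Irgm1, which keep such GTPases off the cell's own membranes, followed the same order of libraries within P56. Irgm2 had 1.01, 0.569 and 1.03 CPM at P1, 12.4, 11.5 and 23.6 at P14 and 2.72, 28.9 and 17.7 at P56. Irgm1 had 1.68, 1.12 and 1.66 CPM at P1, 11.0, 8.30 and 17.4 at P14 and 2.94, 22.0 and 16.2 at P56. In both genes all P14 libraries lay far above P1, and P56 replicate 1 was nearer to P1 than to the other P56 libraries. Irgm2 rose by 4.17 ± 0.76 (adjusted p = 0.00118) and Irgm1 by 3.03 ± 0.63 (adjusted p = 0.00244). Their changes from P14 to P56 were 0.05 ± 0.62 (adjusted p = 0.949) and 0.17 ± 0.55 (adjusted p = 0.815), or 0.55 ± 0.33 and 0.64 ± 0.29 without P56 replicate 1, neither called. The annotation places Igtp on the same strand with exons that overlap Irgm2, so reads of the pair may be mixed.

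The guanylate-binding proteins (Gbp), larger GTPases that coat microbes and their vacuoles, rose as a set of 5. Gbp2 had 0.0949, 0.0948 and 0.108 CPM at P1 (17 counts in all), 4.63, 1.65 and 1.63 at P14 and 0.793, 0.850 and 0.601 at P56, so the 3 ages did not overlap. It rose by 4.70 ± 0.51 (adjusted p = 4.68e-05) and fell by 1.82 ± 0.40 (adjusted p = 0.00371). Gbp7 had 1.03, 0.569 and 0.901 CPM at P1, 9.53, 6.06 and 8.19 at P14 and 1.81, 11.5 and 6.44 at P56. It rose by 3.24 ± 0.57 (adjusted p = 0.000976) and then stood at −0.27 ± 0.50 (adjusted p = 0.666), or 0.17 ± 0.29 without P56 replicate 1. Gbp3 (3.81 ± 0.59, adjusted p = 0.000443), Gbp5 (3.58 ± 0.44, adjusted p = 0.000104) and Gbp8 (1.76 ± 0.48, adjusted p = 0.0109) rose too. Gbp8 shares annotated exon bases with Gbp4 and Gbp9. Mx2, a dynamin-like antiviral GTPase annotated as a polymorphic pseudogene in this genome, had 3.18, 3.39 and 3.91 CPM at P1, 8.02, 7.11 and 9.02 at P14 and 8.97, 12.8 and 12.8 at P56. It rose by 1.20 ± 0.16 (adjusted p = 0.0002) and then by 0.52 ± 0.16 (adjusted p = 0.0188). The later rise was not called after adjustment for the marker score, nor without P14 replicate 2, P56 replicate 2 or P56 replicate 3.

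The promoter stretches of Irgm2 and Gbp7 are shown because they hold both elements of the interferon response within a short distance. They are the 250 bases before the RefSeq start in GRCm38.p6, chr11:58214727-58214976 and chr3:142530086-142530335, both on the plus strand (that of Irgm2 lies within the longer gene span annotated by GENCODE), and capitals mark every match to TTCNNNGAA and to the ISRE core, which reads as TTTC, any 2 bases and TTTC on the other strand.
Irgm2: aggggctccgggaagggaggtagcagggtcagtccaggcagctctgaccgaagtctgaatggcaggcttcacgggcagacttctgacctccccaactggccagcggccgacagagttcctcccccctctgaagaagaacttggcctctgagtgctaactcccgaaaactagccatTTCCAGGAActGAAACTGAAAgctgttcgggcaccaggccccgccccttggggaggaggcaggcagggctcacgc
Gbp7: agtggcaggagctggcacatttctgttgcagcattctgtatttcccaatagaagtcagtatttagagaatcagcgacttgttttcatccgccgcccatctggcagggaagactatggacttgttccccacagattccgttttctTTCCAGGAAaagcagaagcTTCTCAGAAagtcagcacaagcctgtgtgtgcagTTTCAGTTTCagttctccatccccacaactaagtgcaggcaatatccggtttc

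Replicate 1 of P56 was at least 2-fold below both other P56 libraries in 7 of the 46 genes, against 1.12% of all genes. They included Iigp1 (8.87-fold below the lower of the 2), Irgm2 (6.5), Irgm1 (5.49), Gbp7 (3.55), Xaf1 (3.06) and Oas1b (2.23). Usp18 (1.99) lay just outside. Among interferon-induced genes outside the 46, Cd274 (7.17-fold), Tgtp2 (2.42) and Uba7 (2.02) were low in the same library. That library was not the lowest of P56 in Gbp2, Gbp5 or Gbp8. Iigp1, Irgm1, Irgm2 and Gbp7 all lay above P1 in it. The same library was at least 2-fold above both others in 3 genes (2.91% of all genes): Irf5, Ifi204 and Ifitm3. P56 replicate 2 was that far above both others in Gbp3, Oasl2 and Dhx58 (3 genes, 0.689% of all genes). At P14, replicate 1 was high in 5 genes (Gbp2, Gbp5, Gbp8, Ifi202b and Ifit3, 2.52% of all genes) and replicate 3 low in 4 (Bst2, Ifi202b, Ifitm3 and Isg20, 3.24%). At P1, replicate 2 was low in 4 (Bst2, Gbp3, Oas2 and Rsad2, 1.04%), each with at most 6 counts in it.

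The order of the libraries within an age was set against the marker score. At P14, 14 of the 46 genes were ordered as the score (28.1% of all genes) and 6 in the opposite order (27.2%). At P56, 5 followed it (21.2%) and 10 opposed it (18.1%). The 14 genes are close to the background share, and the 5 are below it. After adjustment for the score, the rise from P1 to P14 was larger for Iigp1 (7.17 ± 0.91), Irgm2 (5.77 ± 0.90) and Irgm1 (4.41 ± 0.78). It was smaller for Gbp2 (3.21 ± 0.60) and Gbp5 (2.5 ± 0.57), all still called, and Gbp8 lost its call (0.21 ± 0.61). After that adjustment the values of Gbp2, Gbp5 and Gbp8 from P14 to P56 turned positive (0.15, 0.25 and 0.58, none called).

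**Figure D4:**
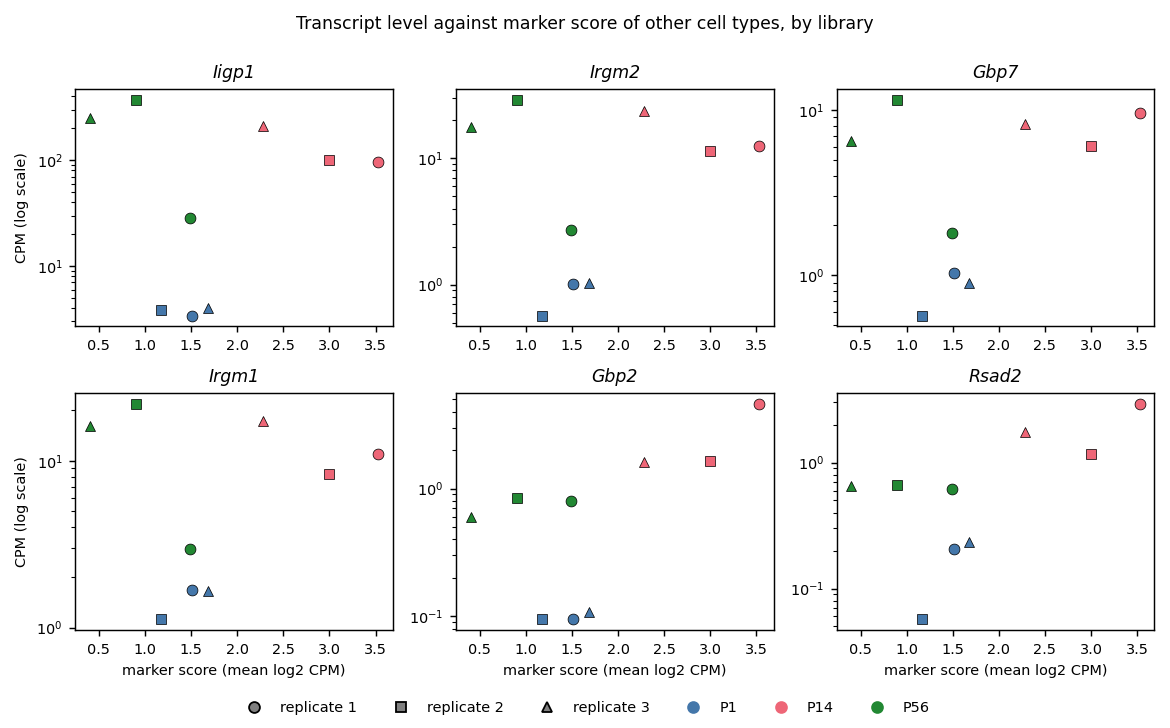
CPM (log axis) of Iigp1, Irgm2, Gbp7, Irgm1, Gbp2 and Rsad2 against the marker score of other cell types (mean log2 CPM) in the 9 libraries, coloured by age. Iigp1 is highest in the P56 libraries with the lower scores and lowest, within P56, in the library with the highest score, while Gbp2 is highest in the P14 library with the highest score.

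Of the 3 cytosolic RNA sensors 2 rose by P14. Ifih1 (MDA5, which binds long double-stranded RNA) had 1.28, 0.815 and 1.57 CPM at P1, 6.31, 3.54 and 3.23 at P14 and 2.60, 3.70 and 4.21 at P56. Both later ages lay above P1 and overlapped each other. It rose by 1.83 ± 0.32 (adjusted p = 0.000966). Ddx58 (RIG-I, which binds RNA ends) had 3.51, 3.51 and 3.69 CPM at P1, 9.12, 6.14 and 4.72 at P14 and 2.76, 3.77 and 2.63 at P56. Its P14 libraries lay above both other ages, which overlapped, with a rise of 0.90 ± 0.23 (adjusted p = 0.00758) and a fall of 1.13 ± 0.23 (adjusted p = 0.00251). Adjusted for the marker score, Ddx58 stood at 0.19 and −0.17, neither called. Dhx58 (LGP2, their regulator) passed no threshold (0.93 ± 0.40, adjusted p = 0.072, from 38 counts at P1).

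The oligoadenylate synthetases, which make a second messenger when they meet double-stranded RNA, all rose by P14. Oasl2, an OAS-like member of the family, had 0.269, 0.246 and 0.252 CPM at P1, 2.43, 1.68 and 2.76 at P14 and 0.589, 1.61 and 0.468 at P56. The 3 ages did not overlap. It rose by 3.15 ± 0.45 (adjusted p = 0.000284) and changed by −1.37 ± 0.40 (adjusted p = 0.0161), which was not called without P56 replicate 1 (−1.15 ± 0.43) or P56 replicate 3. Oas2 was at 15 counts in all at P1 and 78 at P14, a rise of 2.95 ± 0.46 (adjusted p = 0.000475). Oas1b, annotated as a polymorphic pseudogene, rose by 1.07 ± 0.35 (adjusted p = 0.0264), which was not called without P1 replicate 2, P1 replicate 3 or P14 replicate 3 (adjusted p from 0.00467 to 0.0898 over the alternatives).

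The Ifit family, whose proteins bind the 5′ ends of viral RNA, held genes that moved in opposite directions. Ifit1 had 0.0316, 0.0569 and 0.0180 CPM at P1 (6 counts in all), 0.690, 0.676 and 0.855 at P14 and 0.498, 0.964 and 0.913 at P56. No P1 library came near the later ages, which overlapped. It rose by 4.30 ± 0.44 (adjusted p = 3.56e-05) and stood at 0.10 ± 0.30 thereafter (adjusted p = 0.797). Ifit1bl2 had 9.53, 8.24 and 8.34 CPM at P1, 6.87, 7.06 and 8.28 at P14 and 16.1, 15.8 and 15.8 at P56. It passed no threshold by P14 (−0.23 ± 0.10, adjusted p = 0.0709) and rose by 1.10 ± 0.10 to P56 (adjusted p = 2.21e-05), with all P56 libraries above the rest. Its neighbour Ifit1bl1 rose in the same interval (0.81 ± 0.19, adjusted p = 0.00536) from 0.966 to 1.49 CPM at P14 to 1.95 to 2.33 at P56.

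Ifit2 went down. Its level was 10.6, 10.5 and 9.15 CPM at P1, 6.08, 4.57 and 5.10 at P14 and 5.07, 4.73 and 4.48 at P56. All P1 libraries were above all later ones. It was the only 1 of the 46 that fell from P1 to P14 (−0.94 ± 0.12, adjusted p = 0.000179), and at P56 it was at −1.08 ± 0.12 against P1 (adjusted p = 3.82e-05). Ifit3, which binds IFIT1 in a complex, lay between 0.193 and 0.767 CPM in every library and passed no threshold (0.58 ± 0.52, adjusted p = 0.368).

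**Figure D5:**
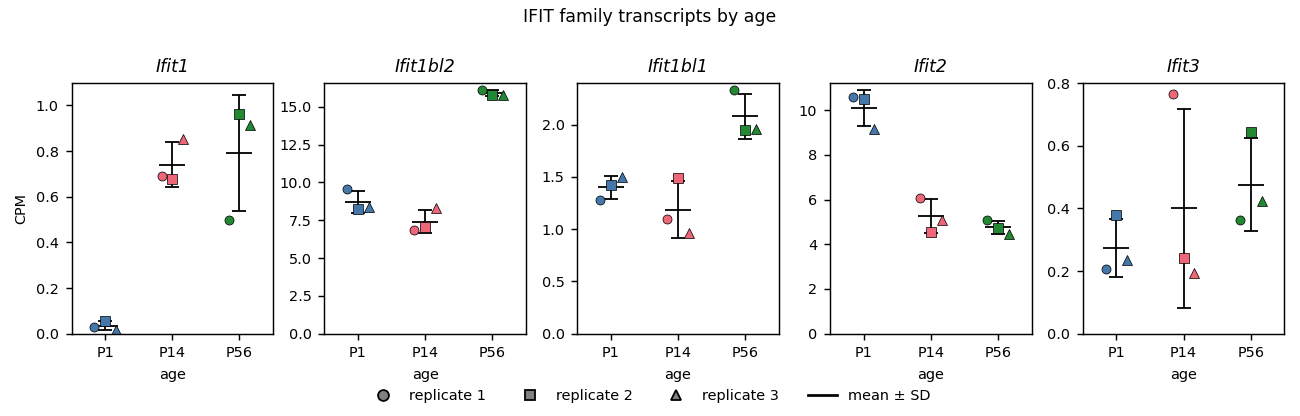
CPM of the 5 Ifit genes in each library by age, with a point shape per replicate number and the mean ± SD of 3 libraries. Ifit1 goes up at P14, Ifit1bl2 and Ifit1bl1 go up at P56, Ifit2 is highest at P1, and Ifit3 shows no separation of the ages.

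Ifit1 and Ifit1bl2 lie head to head on chromosome 19, and their annotated starts are separated by the 127 bases of chr19:34640744-34640870 (GRCm38.p6), shown on the plus strand, the strand of Ifit1. This stretch holds 2 matches to the ISRE core, read here on the other strand and in capitals, which begin 104 and 85 bases before the RefSeq start of Ifit1 and 51 and 70 bases before 1 of the 2 RefSeq starts of Ifit1bl2. The window at the other start of Ifit1bl2 holds no match to either element, and the counts do not show which start was used. In the same libraries, Ifit1 passed the threshold for a rise in the earlier interval and Ifit1bl2 in the later one, a difference that was not itself tested. Ifit2 is shown beside them because it fell: the 250 bases before the first of its 2 RefSeq starts (chr19:34550444-34550693, plus strand) hold no match to the ISRE core and 1 to TTCNNNGAA, and the window at the other start holds neither.
Ifit1 and Ifit1bl2: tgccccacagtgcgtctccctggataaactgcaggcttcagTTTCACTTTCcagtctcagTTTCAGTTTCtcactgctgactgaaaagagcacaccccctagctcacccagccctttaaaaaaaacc
Ifit2: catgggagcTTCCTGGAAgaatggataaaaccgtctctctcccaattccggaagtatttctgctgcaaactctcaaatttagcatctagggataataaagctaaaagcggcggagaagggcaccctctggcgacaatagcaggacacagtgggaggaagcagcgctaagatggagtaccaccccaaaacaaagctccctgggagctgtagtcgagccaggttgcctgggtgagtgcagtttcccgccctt

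The letters of both elements were searched, on both strands, in the 300 bases from 250 before to 50 after each RefSeq start (GRCm38.p6). Of the 46 genes 32 were matched by symbol. A gene with several starts counted once if any of its windows held a match. The ISRE core was found in 17 of the 32 (53.1%) and in 3.99% of 27025 genes, TTCNNNGAA in 11 (34.4%, against 9.55%), and both in 6 (Bst2, Gbp5, Gbp7, Ifitm3, Irf2 and Irgm2, against 0.614% of all genes). A match is a run of letters and not a measured site. The genes were named for their response to interferon, so the share is not independent of how they were chosen. Within the 32, the ISRE core was in 13 of 23 that rose to P14 and in 4 of 8 that passed no threshold, and TTCNNNGAA in 8 and 2. The 10 with neither included Irf3, Irf7, Irf9, Oasl2 and Xaf1.

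The interferon-induced membrane proteins are represented by Ifitm3, which blocks viral entry, and Ifitm10, a relative whose inclusion rests on its symbol. Ifitm10 had 0.427, 0.322 and 0.306 CPM at P1, 1.74, 1.51 and 1.21 at P14 and 1.54, 1.58 and 2.23 at P56, with P1 below both later ages. It rose by 2.07 ± 0.25 (adjusted p = 9.69e-05). Ifitm3 had 0.436 to 0.569 CPM at P1 and 0.441 to 1.61 at P14 and passed no threshold (1.09 ± 0.50, adjusted p = 0.0885).

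The DNA-binding Ifi202b and Ifi204 belong to a family that senses or masks DNA and is prominent in myeloid cells. Their libraries were ordered as the marker score at P14 and at P56, on few counts. Ifi202b had 91 counts in all at P14 and 58 at P56, and Ifi204 had 80 and 69. Ifi204 had 0.126, 0.0948 and 0.0540 CPM at P1, 1.10, 0.622 and 0.386 at P14 and 0.906, 0.390 and 0.267 at P56. Within P14 and within P56 its libraries were in the order of the score. It rose by 2.89 ± 0.60 (adjusted p = 0.00266), and after adjustment for the score stood at 0.77 ± 0.63, not called. Ifi202b rose by 2.00 ± 0.53 (adjusted p = 0.00965) and stood at −0.17 ± 0.60 after the same adjustment. These 2 and Irf5 were the 3 genes of the 46 ordered as the score at both ages, a smaller share than the 10.8% of all genes.

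The ADP-ribosyltransferases of the Parp family, which modify proteins in antiviral and DNA damage responses, rose in 3 of 4 cases by P14, and none passed the threshold from P14 to P56. Without P56 replicate 1 all 4 rose by P14, Parp12 included (0.25 ± 0.08, adjusted p = 0.0215), and Parp9 rose again to P56 (0.36 ± 0.13, adjusted p = 0.0487, against 0.30 and 0.0647 with all libraries). A replicate block in the fit gave calls from P14 to P56 for Parp9 (0.30 ± 0.10, adjusted p = 0.0313) and Parp10 (−0.53 ± 0.18, adjusted p = 0.0309). Parp9, the partner of the ubiquitin ligase DTX3L, had 20.6, 20.8 and 19.9 CPM at P1, 41.2, 47.5 and 60.4 at P14 and 55.4, 62.3 and 65.4 at P56. P1 was below every later library. It rose by 1.28 ± 0.13 to P14 (adjusted p = 2.61e-05) and by 1.75 ± 0.11 after adjustment for the marker score. It was the only 1 of the 46 whose libraries ran opposite to the score at both P14 and P56, a smaller share than the 7.31% of all genes. Its exons overlap those of Dtx3l on the other strand. Parp14, with P1 libraries of 4.09 to 4.38 CPM and P14 libraries of 14.7 to 25.4, rose by 2.31 ± 0.28 (adjusted p = 0.000109). Parp10 rose by 1.66 ± 0.22 (adjusted p = 0.000151), and shares annotated exon bases with Plec. Parp12 had 19.9 to 28.1 CPM over all libraries and differed from P1 at P56 (0.33 ± 0.11, adjusted p = 0.0252), a call lost without any single P1 library or P56 replicate 2 or 3.

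Among the remaining effectors, 8 of 10 rose by P14. Rtp4, which was identified as a receptor chaperone and also acts against RNA viruses, had 2.92, 2.81 and 3.17 CPM at P1, 9.43, 11.7 and 8.88 at P14 and 14.8, 16.1 and 17.7 at P56. The 3 ages did not overlap. It rose by 1.75 ± 0.13 (adjusted p = 3.94e-06) and again by 0.70 ± 0.12 (adjusted p = 0.000963), the later rise not being called after adjustment for the marker score (0.62 ± 0.27). Xaf1, a promoter of apoptosis, had 0.332, 0.417 and 0.540 CPM at P1, 6.75, 4.95 and 5.77 at P14 and 1.4, 6.25 and 4.30 at P56, a rise of 3.76 ± 0.49 to P14 (adjusted p = 0.000155).

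Rsad2, the radical SAM enzyme viperin, had 0.206, 0.0569 and 0.234 CPM at P1 (29 counts in all), 2.94, 1.16 and 1.74 at P14 and 0.612, 0.666 and 0.646 at P56. It was highest at P14 and the ages did not overlap. It rose by 3.52 ± 0.45 (adjusted p = 0.000139) and fell by 1.60 ± 0.39 (adjusted p = 0.00643), and the latter stood at −0.64 ± 0.73, not called, after adjustment for the marker score. Its 250 bases before the start (chr12:26456453-26456702, minus strand, GRCm38.p6) are shown as a gene of the rise-and-fall pattern with 1 match to the ISRE core, read on the other strand.
Rsad2: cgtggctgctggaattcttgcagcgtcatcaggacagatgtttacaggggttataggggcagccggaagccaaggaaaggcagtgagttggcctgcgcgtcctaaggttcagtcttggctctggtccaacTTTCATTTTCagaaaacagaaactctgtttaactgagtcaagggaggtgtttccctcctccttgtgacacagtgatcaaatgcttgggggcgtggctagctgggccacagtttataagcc

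Usp18, the ISG15 protease that also brakes the receptor, had 0.980, 0.455 and 0.594 CPM at P1, 3.09, 2.62 and 3.75 at P14 and 0.997, 2.11 and 1.98 at P56. It rose by 2.20 ± 0.34 (adjusted p = 0.000444). The later change of −0.89 ± 0.32 (adjusted p = 0.0374) was not called without P1 replicate 3, P14 replicate 3, P56 replicate 1 or P56 replicate 3. Ifi27, a mitochondrial protein gene, rose by 2.59 ± 0.31 (adjusted p = 8.84e-05), Ifi35 by 0.82 ± 0.12 (adjusted p = 0.000352), and Ifi44 by 1.63 ± 0.49 (adjusted p = 0.0171, lost without P14 replicate 1). Bst2, tetherin, which holds budding virus to the cell, rose by 1.50 ± 0.56 (adjusted p = 0.0446), a call that held in 5 of 17 alternatives. Isg20, an exonuclease, stood at 0.62 ± 0.52 (adjusted p = 0.334). Ifi30, a lysosomal thiol reductase of antigen processing, had a mean of 1.05 ± 0.0474 CPM at P1 and 1.18 ± 0.0392 at P14, and fell by 0.70 ± 0.18 to P56 (adjusted p = 0.00823).

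The rest of the pathway was read from lists chosen with earlier results of these data known. Of 9 genes for interferon receptors and their kinases, 2 rose and 3 fell from P1 to P14, with called changes from −0.37 to 0.54, shares near those of all genes (28.4% and 27.5%). Jak1 rose by 0.43 ± 0.05 (adjusted p = 5.55e-05) and Ifngr1, a receptor chain for interferon gamma, by 0.54 ± 0.16 (adjusted p = 0.018), while Ifnar1, a type I receptor chain, fell by 0.37 ± 0.07 on the log2 scale (adjusted p = 0.00216). The ligand genes of the list were not analysed here. Of 16 sensing genes and adaptors 8 rose and 2 fell (28.4% and 27.5% of all genes), with a median of 0.715. After adjustment for the marker score 5 rose and none fell (24.2% and 24.5% of all genes), with the median at −0.24. The list was led by Tlr4, the receptor for bacterial lipopolysaccharide (2.02 ± 0.10, adjusted p = 2.55e-07). Tlr7, a sensor of single-stranded RNA, rose by 1.72 ± 0.50 (adjusted p = 0.0145) and the adaptor Ticam1 by 1.00 ± 0.16 (adjusted p = 0.000454).

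Of 13 brakes on signalling 4 rose and 3 fell, again near the shares of all genes, with Ptpn11, the phosphatase SHP2, at 1.41 ± 0.16 (adjusted p = 5.65e-05). The falls were Rnaseh2b (−1.11 ± 0.12, adjusted p = 3.87e-05), Rnaseh2c (−0.54 ± 0.21, adjusted p = 0.0493) and Adar, which edits double-stranded RNA (−0.49 ± 0.10, adjusted p = 0.0024). Adar then rose by 0.62 ± 0.10 to P56 (adjusted p = 0.000657), while Rnaseh2b and Rnaseh2c were still below P1 at P56 (−1.14 and −1.08). Of 31 other interferon-induced genes 22 rose and 3 fell from P1 to P14 (median 1.18), where 28.4% and 27.5% of all genes did. From P14 to P56, 2 of the 31 rose and 15 fell (median −0.81), where 27.5% and 28.5% of all genes did. Sp100, a nuclear body component, rose by 3.92 ± 0.39 (adjusted p = 2.99e-05) and then fell by 1.72 ± 0.35 (adjusted p = 0.00223). The protein kinase gene Eif2ak2 fell by 0.74 ± 0.11 (adjusted p = 0.000362), and Slfn8 stood at −1.51 ± 0.37 (adjusted p = 0.00628). Adjusted for the marker score, 12 of the 31 rose and 3 fell from P1 to P14 (median 0.40), where 24.2% and 24.5% of all genes did. In that fit 3 rose and 3 fell from P14 to P56 (median −0.17), shares below the 15.7% and 14.8% of all genes.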

How the data were processed

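Per the labels, RNA of isolated cardiomyocytes was sequenced after ribosomal RNA depletion. The deposited file holds raw counts, 1 whole number for each gene in each library. The tools, per the submitters' processing notes, were featureCounts 1.4.2, STAR 2.4.0g1 and bcl2fastq 2.17.1.14, and the build was GRCm38. The strand setting and the feature counted are not given in the sources used, and the 19 of 46 genes whose exons overlap another gene are uncertain.

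The test was edgeR 4.0.16 under R 4.3.3: filterByExpr removed 7 genes, TMM scaled the libraries, and 1 quasi-likelihood fit (glmQLFit, glmQLFTest) held all 9 libraries with age as its term. P-values were adjusted by Benjamini-Hochberg over 15817 genes, with a threshold of 0.05. Changes are fitted log2 values ± SE and levels are CPM. The common dispersion was 0.0192, a biological coefficient of variation of 13.9%. Replicate libraries differed by more than counting error (chi-square per degree of freedom 5.56 to 104). On simulated data, 90.5% of 2-fold changes were recovered and 5.24% of calls were false. That simulation changed 200 genes at P14, each with a mean of at least 1 CPM, and drew counts at the dispersion trend. Its rates therefore do not cover genes with lower levels or with more spread than the trend.

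Named were all Irf genes and Stat2, and in the other roles up to 5 genes per direction with the largest called change and at least 1 CPM at their highest age. Others were added for their library pattern, their promoter or because they passed no threshold, and some that this rule takes are left out of text and plots. The members and lists were chosen with earlier results of these data known. Alternatives were DESeq2 1.42.0, limma-voom 3.58.1, other scalings and filters, fits of only the ages compared, a replicate block, the marker score and leaving out each library. Promoters came from a RefSeq table and gene positions from the GENCODE M21 annotation.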

Additional observations from a re-analysis of the deposited data

How the results depend on the processing

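Of 2451 single-gene values recomputed, 2295 stayed on the same side of the threshold, 106 lost their call and 44 gained one. Sign changes of values called in neither fit are within the 2295. A further 6 turned sign with a call in the main fit or in the alternative. All 6 turned with the marker score in the fit: Ifi202b from P1 to P14 (−0.17), and from P14 to P56 Ifi202b (1.97), Ifi204 (2.26), Gbp2 (0.15), Gbp5 (0.25) and Gbp8 (0.58). In that fit 5 genes were lower at P56 than at P14 (14.8% of all genes). Library size as the only scaling put the median of all genes at −0.13, −0.13 and −0.27 in the 3 comparisons. With it 33 genes rose and 2 fell from P1 to P14, where 3573 and 5435 of all 15817 genes did. At P56, 27 were higher and 4 lower than at P1, against 3290 and 6986 of all genes. With DESeq2 1 gene was lower at P56 than at P1, against 4884 of all 15817 genes. A filter of at least 1 CPM in 3 libraries left 35 of the 46 genes, of which 29 rose to P14, against 3987 of all 13381 genes left.

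With each library left out in turn, 33 to 38 genes rose and 1 to 2 fell from P1 to P14 (median 1.39 to 1.78). Of all 15821 to 15823 genes tested in these fits, 3838 to 4662 rose and 3630 to 4577 fell. From P14 to P56, 3 to 7 rose and 7 to 16 fell (median −0.57 to −0.18), with the 7 rises and 9 falls without P56 replicate 1 and the 7 falls without P56 replicate 3. Over all genes 3761 to 4435 rose and 3880 to 4551 fell. From P1 to P56, 27 to 32 were higher and 1 to 2 lower (median 1.11 to 1.48), and 37 to 41 differed among the ages. Of all genes 4341 to 5195 were higher and 4411 to 5361 lower at P56 than at P1. Deviations of same-numbered libraries correlated at −0.208 to 0.47 (9 pairs) and those of different numbers at −0.452 to 0.286 (18 pairs). The same-numbered pairs included replicate 1 of P14 and P56 (0.47) and replicate 3 of P14 and P56 (0.341). With 3 libraries per age, these overlapping ranges cannot decide whether the replicate numbers pair the libraries. With the replicate block 35 genes rose and 1 fell to P14 (28.6% and 27.2% of all genes). In that fit 6 rose and 15 fell from P14 to P56 (27.2% and 28.8%), the 15 being close to the share of all genes. At P56, 29 were higher and 2 lower than at P1 (30.8% and 32.4%). Depth limits the genes with few counts at P1, such as Ifit1 (6 counts) and Oas2 (15), whose fold depends on those reads.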
